A study of Mus musculus with 8 samples.

Results

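Connexins are the proteins that build gap junctions, and the transcripts of 6 connexin genes were followed here in uterine stromal cell preparations of mice. The genes are Gja1, Gja4, Gja5, Gjc1, Gjb1 and Gjb2, chosen by name as connexins of uterine stroma, epithelium and vessels, out of 23420 gene symbols in the count tables. All 6 were present in the tables, and 5 of them had enough reads for the test across all genes, Gja5 being the exception. RNA was compared between 4 libraries labelled Erbb3f/f and 4 libraries labelled Erbb3d/d, all from uterine stromal cells at day 3. The letter f commonly stands for a floxed allele, which Cre recombinase can delete, and d for the deleted one. The labels name no Cre line, do not say from which event the day is counted, and give no strain, age or pooling of animals.

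A connexin spans the cell membrane, its subunits assemble into a ring-shaped hemichannel, and the hemichannels of neighbouring cells dock to form a channel for ions and small molecules. In the mouse uterus the Gja1 product is the main connexin of the stroma and is needed for decidualization, the conversion of stroma into the tissue that supports the embryo. Gjb1 and Gjb2 products belong to epithelia, where Gjb2 is responsive to ovarian hormones and to the implanting embryo. Gja4 and Gja5 products are found in vessel walls, mainly in endothelium, and the Gjc1 product in smooth muscle and other mesenchymal cells.

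The regions just upstream of Gja1 and Gjb2 are shown because these genes stood at opposite ends of the comparison. Each line gives the 250 bases before the RefSeq start site, 5′ to 3′ on the gene's strand (GRCm38.p6), at chr10:56377050-56377299 on the plus strand for Gja1 and chr14:57104703-57104952 on the minus strand for Gjb2. Capitals mark matches on either strand to TGANTCA (the AP-1 motif), GGGCGG (the GC box bound by SP factors) or GGTCA (the core of nuclear receptor sites).
Gja1: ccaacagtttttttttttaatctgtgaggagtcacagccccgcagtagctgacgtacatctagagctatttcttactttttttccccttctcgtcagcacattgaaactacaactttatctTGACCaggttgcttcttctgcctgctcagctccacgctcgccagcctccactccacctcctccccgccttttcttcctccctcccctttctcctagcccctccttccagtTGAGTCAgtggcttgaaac
Gjb2: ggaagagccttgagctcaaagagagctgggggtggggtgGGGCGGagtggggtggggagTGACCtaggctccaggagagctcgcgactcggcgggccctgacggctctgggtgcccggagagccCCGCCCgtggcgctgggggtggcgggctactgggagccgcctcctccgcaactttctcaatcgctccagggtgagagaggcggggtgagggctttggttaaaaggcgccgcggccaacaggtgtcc
The Gja1 sequence held TGAGTCA at -19 to -13 from the start and TGACC, the reverse complement of GGTCA, at -129 to -125. The Gjb2 sequence held no TGANTCA, held GGGCGG at -211 to -206 and its reverse complement CCGCCC at -126 to -121, and held TGACC at -191 to -187. No match overlapped another. Among 32851 promoters of the same length, 6.75% held TGANTCA, 32.7% held GGGCGG and 35.2% held GGTCA. The G and C content was 50% in the Gja1 sequence, 69.2% in the Gjb2 sequence and 52.4% in the median promoter. These matches are letters in a window and say nothing of binding in these cells.

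Between 8578575 and 12854367 reads per library fell in genes. Values given for the libraries of a genotype follow the order of replicates 1 to 4. Erbb3, the targeted gene, had 7.40, 10.6, 8.24 and 12.3 CPM (read counts scaled to library size) in the Erbb3f/f libraries and 7.36, 14.3, 17.6 and 16.2 CPM in the Erbb3d/d libraries. The libraries labelled Erbb3d/d did not have less of it (log2 fold change 0.53, SE 0.28, adjusted p = 0.484, edgeR), and counts over the whole gene do not show whether an exon was deleted, so each direction below follows the labels only. The 10 stromal markers summed to 10305 to 14798 CPM per library, 12 epithelial markers to 939 to 2304 CPM, 12 endothelial markers to 264 to 589 CPM and 10 smooth muscle markers to 1699 to 5031 CPM. The libraries thus held transcripts of epithelium, vessels and muscle beside those of stroma. In such bulk samples fewer cells of a type and less RNA per cell cannot be told apart.

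Of the 5 members tested, 0 had an adjusted p under 0.05 by the quasi-likelihood test of edgeR, and over all 14598 genes tested percent called was 0. At an unadjusted p under 0.05 there were 2 members, Gja1 lower and Gjb2 higher in the libraries labelled Erbb3d/d, where 11.6% of all genes tested had such a p, 4.97% lower and 6.64% higher. DESeq2 called 258 of the 15946 genes it tested, and Gja1 alone of the 6 members (adjusted p = 0.0154). Among the 5, 2 had a positive (as did 48% of all genes tested) and 3 a negative log2 fold change, with a median of -0.09 against -0.01 over all genes tested.

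**Figure D1:**
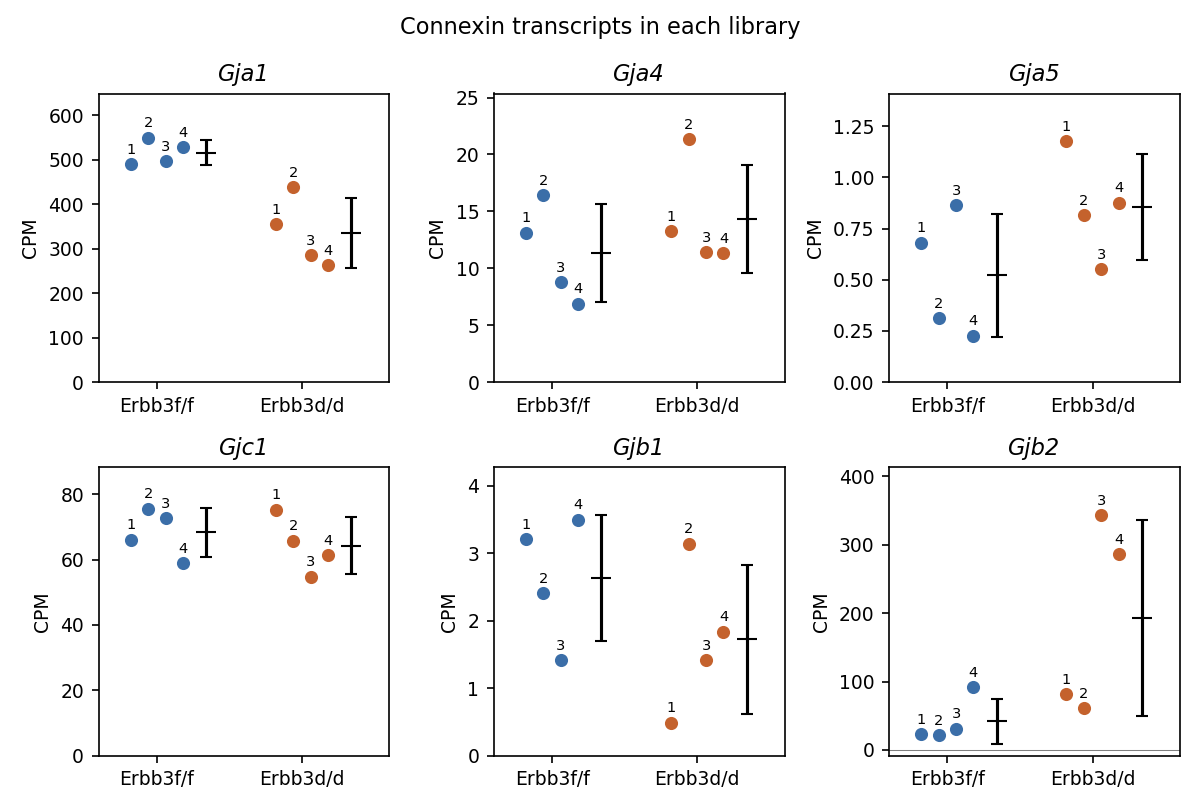
CPM of each connexin (vertical axes from 0, a scale per gene) in the 4 libraries of each labelled genotype, with the replicate number over each point and the mean ± SD as a black bar. Gja1 is lower in all 4 Erbb3d/d libraries than in any Erbb3f/f library, while Gjb2 is far higher in Erbb3d/d replicates 3 and 4 than in the rest.

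Gja1 encodes the main stromal connexin and lies on chromosome 10 at 56377330 to 56402513, plus strand (GRCm38, GENCODE vM21). It had 490, 549, 497 and 528 CPM in the Erbb3f/f libraries, from 5034, 5251, 6329 and 4673 reads. The Erbb3d/d libraries had 354, 437, 285 and 262 CPM, from 3610, 3754, 3616 and 2995 reads. Every library labelled Erbb3d/d lay below every library labelled Erbb3f/f, and replicates 3 and 4 were the lowest. Means were 516 ± 27.7 CPM for Erbb3f/f and 335 ± 78.9 CPM for Erbb3d/d (SD, n = 4 each), so the libraries labelled Erbb3d/d also spread more widely (coefficient of variation 23.6% against 5.37%). The log2 fold change was -0.62 (SE 0.15, 95% interval -0.95 to -0.30), with an unadjusted p of 0.00157 and an adjusted p of 0.225 by edgeR. An exact two-sided permutation test over the 70 assignments of libraries gave p = 0.0286, the smallest it allows. Groups that did not overlap, lower in Erbb3d/d, were found for 2.48% of all genes tested. The edgeR call depended on 1 library, since the adjusted p was 0.0173 without Erbb3d/d replicate 2 (log2 fold change -0.78) and 0.282 to 0.549 without any other. Without Erbb3d/d replicate 2, 259 of all 14774 genes tested passed. Without both Erbb3d/d replicates 3 and 4, a check chosen after the data were seen, the log2 fold change of Gja1 was -0.38 (SE 0.13, adjusted p = 0.903 by edgeR).

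Pdgfra, a receptor that marks stromal fibroblasts, followed the same order of groups as Gja1. It had 893, 951, 998 and 816 CPM in the Erbb3f/f libraries and 682, 720, 519 and 564 CPM in the Erbb3d/d libraries. Set per 1000 CPM of Pdgfra, Gja1 stood at 498 to 647 CPM in Erbb3f/f and at 466 to 607 CPM in Erbb3d/d, ranges that overlap widely. Set per 1000 CPM of all 10 stromal markers, Gja1 stood at 35.7 to 48.3 CPM in Erbb3f/f and 22.7 to 35.8 CPM in Erbb3d/d. The sum of those 10 markers overlapped between the groups, at 11374 to 14798 CPM in Erbb3f/f and 10305 to 14116 CPM in Erbb3d/d. Of the 10, 4 were higher (Pdgfrb, Col1a2, Dcn and Lum) and 6 lower in Erbb3d/d. An unadjusted p under 0.05 by edgeR was found for 3 of the lower ones (Vim, Pdgfra and Hoxa11) and for 0 of the higher ones. Of all genes tested 4.97% were lower and 6.64% higher at that p. The part of the stromal share in the Gja1 difference was not tested.

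Gjb2 encodes an epithelial connexin and lies on chromosome 14 at 57098600 to 57104702, minus strand. It had 23.3, 21.2, 31.2 and 91.5 CPM in the Erbb3f/f libraries, from 239, 203, 397 and 810 reads. The Erbb3d/d libraries had 81.8, 60.7, 343 and 287 CPM, from 833, 521, 4359 and 3269 reads. Erbb3f/f replicate 4 lay within the range of the other genotype, above Erbb3d/d replicates 1 and 2, and Erbb3d/d replicates 3 and 4 stood far above all others. Means were 41.8 ± 33.4 CPM for Erbb3f/f and 193 ± 143 CPM for Erbb3d/d (SD, n = 4 each). This is a log2 fold change of 2.22 (SE 0.68, 95% interval 0.67 to 3.76), with an unadjusted p of 0.0101 and an adjusted p of 0.311 by edgeR, and an exact permutation test gave p = 0.0857. Its size rested on Erbb3d/d replicates 3 and 4: without both of them the log2 fold change was 0.78 (SE 0.64, adjusted p = 0.999 by edgeR).

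Epithelial markers were also highest in Erbb3d/d replicates 3 and 4. Their sum was 1366, 1174, 939 and 1500 CPM in the Erbb3f/f libraries and 1416, 1478, 2256 and 2304 CPM in the Erbb3d/d libraries. A higher mean in Erbb3d/d was found for 11 of the 12 markers, 10 of them with an unadjusted p under 0.05 by edgeR. Over all genes tested 48% had a positive log2 fold change and 6.64% were higher at that p. The epithelial sum of the highest library was 2.45 times that of the lowest, while the corresponding ratio for Gjb2 was 16.2. Per 1000 CPM of epithelial markers, Gjb2 stood at 17.0, 18.1, 33.2 and 61.0 CPM in the Erbb3f/f libraries and at 57.7, 41.1, 152 and 124 CPM in the Erbb3d/d libraries. Per 1000 CPM of Epcam, an adhesion molecule of epithelia, it stood at 288 to 856 CPM in Erbb3f/f and 602 to 1705 CPM in Erbb3d/d. Gjb2 thus spread over a wider range than the markers did, and the groups overlapped on both scales. With the mean log2 CPM of the epithelial markers as a covariate, the log2 fold change of Gjb2 was 0.40 (SE 0.57) and that of Gja1 was -0.37 (SE 0.17), each with an adjusted p of 0.9996 by edgeR. With the endothelial mean as a covariate both passed in edgeR, at adjusted p = 0.0102 for Gjb2 and 0.0470 for Gja1. That setting called 227 of all 14598 genes tested, where the fit without a covariate called 0.

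**Figure D2:**
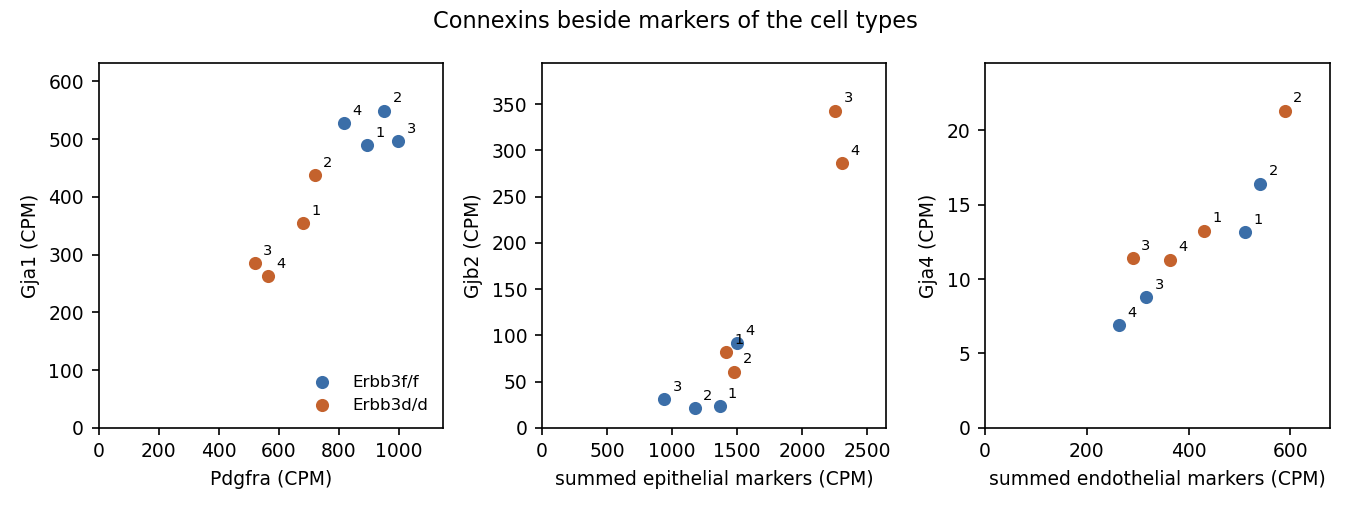
CPM of Gja1 against CPM of Pdgfra (left), of Gjb2 against the summed CPM of 12 epithelial markers (middle) and of Gja4 against the summed CPM of 12 endothelial markers (right), one point per library with its replicate number, all axes from 0. Erbb3d/d replicates 3 and 4 have the least Pdgfra and Gja1, and the most epithelial transcripts and Gjb2. The sum of all 10 stromal markers, not drawn, overlapped between the genotypes.

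Gjb1 encodes the other epithelial connexin among the members, lies on chromosome X at 101376378 to 101385629, plus strand, and did not follow Gjb2. It had 33, 23, 18 and 31 reads in the Erbb3f/f libraries (3.21, 2.41, 1.41 and 3.50 CPM) and 5, 27, 18 and 21 reads in the Erbb3d/d libraries (0.491, 3.15, 1.42 and 1.84 CPM). The groups overlapped, with the lowest value in Erbb3d/d replicate 1. The mean was 2.63 ± 0.936 CPM for Erbb3f/f and 1.72 ± 1.10 CPM for Erbb3d/d (SD, n = 4 each). For Gjb1 the log2 fold change of -0.62 had a 95% interval of -1.76 to 0.53 (adjusted p = 0.678 by edgeR). Where Gjb2 and the epithelial markers were highest, in Erbb3d/d replicates 3 and 4, Gjb1 was below the mean of the Erbb3f/f libraries. Single libraries moved the value, to -0.31 without Erbb3d/d replicate 1 and to -1.04 without Erbb3d/d replicate 2.

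Gja4 and Gja5 encode connexins of the vessel wall. Gja4, on chromosome 4 at 127311421 to 127314039, minus strand, had 13.1, 16.4, 8.79 and 6.89 CPM in the Erbb3f/f libraries and 13.2, 21.3, 11.4 and 11.3 CPM in the Erbb3d/d libraries, from 61 to 183 reads. The groups overlapped, and the 95% interval of the log2 fold change of 0.34 ran from -0.33 to 1.001 (adjusted p = 0.706 by edgeR). It was 0.087 without Erbb3d/d replicate 2, 0.16 without Erbb3f/f replicate 4 and 0.58 without Erbb3f/f replicate 2. The endothelial marker sum varied in the same libraries, at 511, 540, 316 and 264 CPM in the Erbb3f/f libraries and 429, 589, 290 and 363 CPM in the Erbb3d/d libraries. Replicate 2 was the highest of its genotype for Gja4 and for the endothelial sum in both groups. Per 1000 CPM of endothelial markers Gja4 stood at 25.7 to 30.4 CPM in Erbb3f/f and at 30.9 to 39.3 CPM in Erbb3d/d, a ratio formed after the values were seen. The largest single part of that sum was Cdh5, with 196 ± 62.1 CPM for Erbb3f/f and 151 ± 83.3 CPM for Erbb3d/d (SD, n = 4 each). Cdh5 was the only 1 of the 12 markers with a negative log2 fold change (-0.38). Its part in the separation of these ranges was not tested. With the mean log2 CPM of the endothelial markers as a covariate, the log2 fold change of Gja4 was 0.12 (SE 0.19, adjusted p = 0.808 by edgeR). This is nearer to 0 than without a covariate, but the smooth muscle mean as a covariate also gave 0.12 (SE 0.40). With the epithelial mean it was farther from 0, at 0.72 (SE 0.40). The cause of these shifts was not tested.

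Gja5 lies on chromosome 3 at 96904693 to 97077416, plus strand, and shares up to 165 exonic bases with an exon of Gpr89 on the other strand, which undirected libraries cannot separate. It had 7, 3, 11 and 2 reads in the Erbb3f/f libraries and 12, 7, 7 and 10 reads in the Erbb3d/d libraries, too few for the test across all genes. The mean was 0.521 ± 0.302 CPM for Erbb3f/f and 0.855 ± 0.257 CPM for Erbb3d/d (SD, n = 4 each), the groups overlapped, and an exact permutation test gave p = 0.171. Of the 6 arterial endothelial markers, 5 were tested and 4 of these had a positive log2 fold change, as did 48% of all genes tested. An unadjusted p under 0.05 by edgeR was found for Efnb2 alone, where 6.64% of all genes tested were higher at that p. Efnb2 had 166 ± 43.5 and 284 ± 100 CPM, above the endothelial marker Pecam1, at 51.9 ± 19.0 and 56.0 ± 12.0 CPM (SD, n = 4 each, Erbb3f/f first). Sox17, another of the 4, was also above Pecam1, at 203 ± 47.1 and 219 ± 46.6 CPM (SD, n = 4 each, Erbb3f/f first). Which cells the Efnb2 and Sox17 reads came from was not tested.

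Gjc1 encodes a connexin of smooth muscle and other mesenchymal cells, lies on chromosome 11 at 102799579 to 102819700, minus strand, and had similar means in both genotypes. It had 66.1, 75.6, 72.7 and 58.9 CPM in the Erbb3f/f libraries and 75.3, 65.8, 54.7 and 61.3 CPM in the Erbb3d/d libraries, from 521 to 926 reads. The groups overlapped almost fully, at 68.3 ± 7.46 CPM and 64.3 ± 8.64 CPM (SD, n = 4 each). The log2 fold change of -0.09 had a 95% interval of -0.36 to 0.18 (adjusted p = 0.813 by edgeR). Of the smooth muscle markers 9 of 10 had a higher mean in Erbb3d/d, 8 of these at an unadjusted p under 0.05 by edgeR. Over all genes tested 48% had a positive log2 fold change and 6.64% were higher at that p. With the mean of the smooth muscle markers as a covariate the log2 fold change of Gjc1 was -0.25 (adjusted p = 0.645 by edgeR).

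Levels of different genes were compared as CPM per kilobase of the longest principal transcript in GENCODE vM21. In the Erbb3f/f libraries the order on this scale was Gja1 at 162 ± 8.70, Gjc1 at 29.5 ± 3.22, Gjb2 at 17.4 ± 13.9, Gja4 at 6.71 ± 2.55, Gjb1 at 1.66 ± 0.591 and Gja5 at 0.168 ± 0.0970 CPM per kb (SD, n = 4 each). Gjc1 and Gjb2 did not differ beyond their spread, since Gjb2 in replicate 4, at 38.0, exceeded the highest Gjc1 value of 32.7. In the Erbb3d/d libraries Gja1 stood at 105 ± 24.8, Gjb2 at 80.2 ± 59.3, Gjc1 at 27.8 ± 3.73, Gja4 at 8.50 ± 2.82, Gjb1 at 1.09 ± 0.696 and Gja5 at 0.275 ± 0.0828 CPM per kb (SD, n = 4 each). There Gja1 and Gjb2 overlapped, with Gjb2 at 25.2 to 143 and Gja1 at 82.5 to 137 CPM per kb. The order depends on the lengths taken. Per kilobase of all merged exons of each gene, which raises the length of Gja1 from 3182 to 10257 bp and leaves that of Gjb2 at 2406 bp, Gja1 stood at 50.3 ± 2.70 in Erbb3f/f and 32.6 ± 7.69 in Erbb3d/d, and Gjb2 at 17.4 ± 13.9 and 80.2 ± 59.3 (SD, n = 4 each). On that scale the mean of Gjb2 was above that of Gja1 in Erbb3d/d, and above that of Gjc1, at 13.7 ± 1.49 (SD, n = 4), in Erbb3f/f.

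The sum over all 20 connexin genes overlapped between the genotypes, while its make-up varied between libraries. The summed level was 681 ± 41.7 CPM for Erbb3f/f and 668 ± 74.2 CPM for Erbb3d/d (SD, n = 4 each). Corrected for length, Gja1 held 68.1%, 72.6%, 68.7% and 64.1% of connexin transcripts in the Erbb3f/f libraries and 52.0%, 59.5%, 30.3% and 30.6% in the Erbb3d/d libraries. Gjb2 held 4.27%, 3.71%, 5.70% and 14.7% in the Erbb3f/f libraries and 15.9%, 10.9%, 48.3% and 44.2% in the Erbb3d/d libraries. The ratio of Gja1 to Gjb2, in CPM per kb, was 4.36 to 19.6 in Erbb3f/f and 0.627 to 5.45 in Erbb3d/d. Gjb2 exceeded Gja1 only in Erbb3d/d replicates 3 and 4, at 0.627 and 0.693. With the merged exons of every gene as its length, Gja1 held 39.7% to 53.2% in Erbb3f/f and 12.6% to 35.6% in Erbb3d/d, and the ratio of Gja1 to Gjb2 was 1.35 to 6.07 and 0.195 to 1.69.

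**Figure D3:**
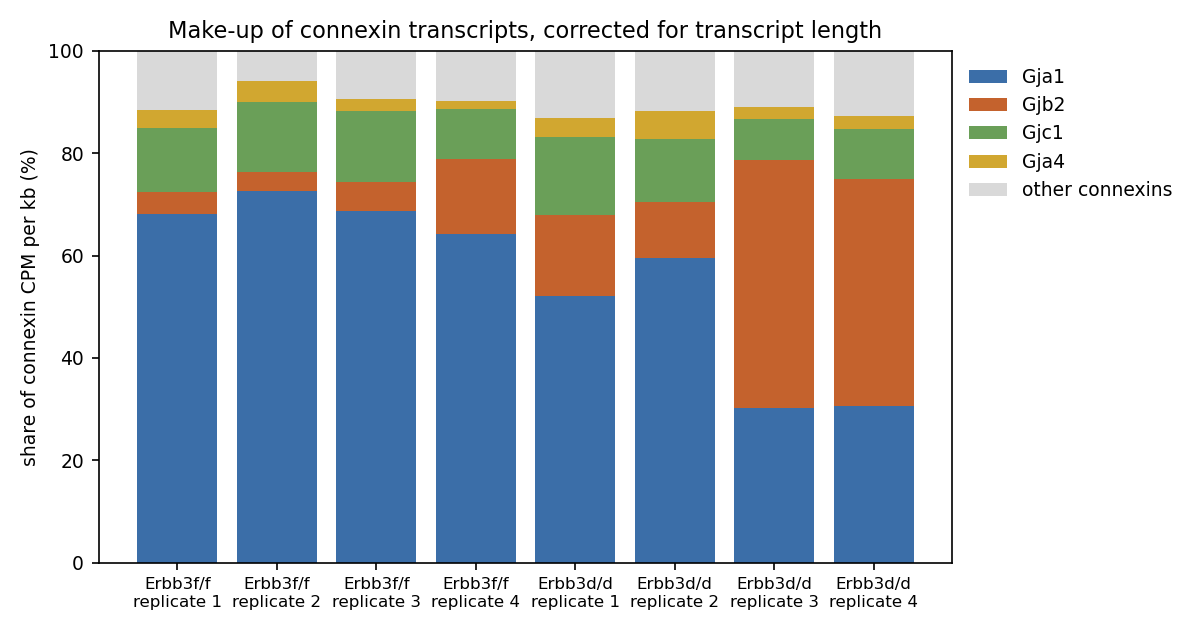
Share of connexin transcripts held by Gja1, Gjb2, Gjc1, Gja4 and all other connexins together (percent of the summed CPM per kb of 20 connexin genes) in the 8 libraries, stacked to 100%. Gja1 holds 64.1% or more in the Erbb3f/f libraries and 30.3% and 30.6% in Erbb3d/d replicates 3 and 4, where Gjb2 holds 48.3% and 44.2%.

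The other 14 connexin genes were read out as a list. Of these, 5 had enough reads for the test, all 5 with a positive log2 fold change, 0 with an adjusted p under 0.05 (0 with DESeq2) and 2 with an unadjusted p under 0.05 by edgeR, where 6.64% of all genes tested were higher at that p. Because the filter can keep a gene through its higher group, the count over the tested genes supports no direction. Gja3 had 1.58 ± 1.10 and 2.75 ± 0.755 CPM, and Gjb5 had 2.32 ± 1.04 and 3.15 ± 1.01 CPM (SD, n = 4 each, Erbb3f/f first), and neither reached an unadjusted p of 0.05. Of the genes with a mean under 1 CPM, singled out after their values were seen, Gjb6 had 2, 8, 0 and 2 reads in the Erbb3f/f libraries and 5, 2, 37 and 20 reads in the Erbb3d/d libraries. Gjd4 and Gje1 had 0 reads in all 8 libraries, which allows up to 0.235 to 0.350 CPM per library at a floor of 3 reads, for counting error only.

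Some connexin genes are neighbours in the genome. Gjb2 lies 40.5 kb from Gja3 and 18.6 kb from Gjb6 on chromosome 14, all on the minus strand. Gja1 has no connexin gene nearby, and Gje1 is the only other one on chromosome 10.

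**Figure D4:**
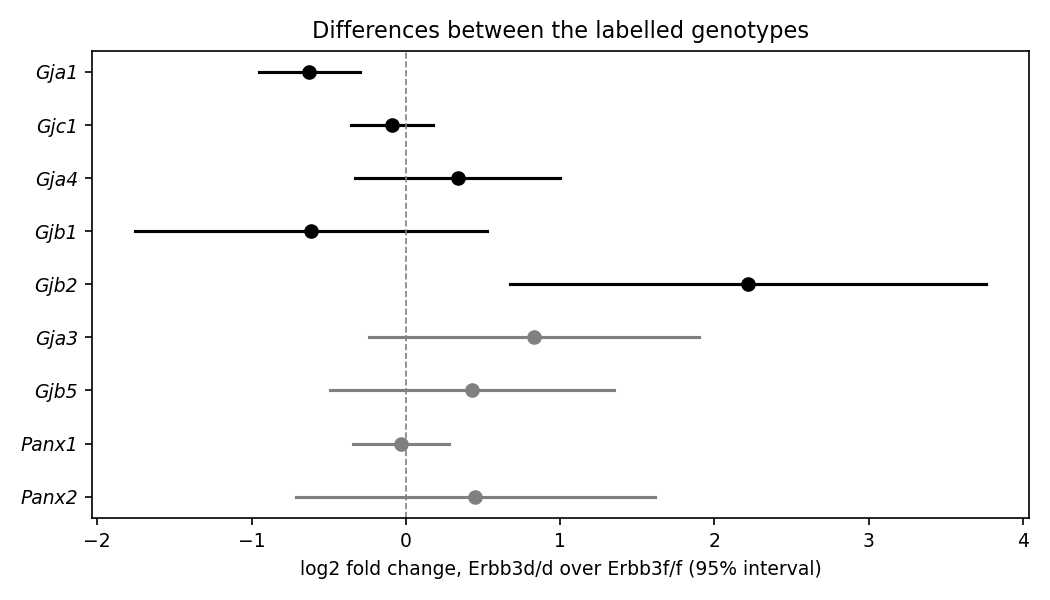
Log2 fold change (Erbb3d/d over Erbb3f/f, as labelled) of the tested members, Gja3, Gjb5, Panx1 and Panx2, with 95% intervals as lines (black for the 5 tested members, grey for the others) and a dashed line at 0. Of the genes drawn, the intervals of Gja1 and Gjb2 do not reach 0, before any adjustment for the 14598 genes tested.

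Pannexins form single-membrane channels for ATP and do not dock between cells. Of 3 pannexin genes 2 were tested and 0 had an unadjusted p under 0.05. Panx1 had 31.3 ± 5.06 CPM for Erbb3f/f and 30.6 ± 2.88 CPM for Erbb3d/d (SD, n = 4 each), with a log2 fold change of -0.03 (95% interval -0.34 to 0.28).

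Proteins that bind, anchor, modify or traffic connexins were listed as 16 genes, all of them tested. Their log2 fold changes were positive for 10 and negative for 6, with a median of 0.09 against -0.01 over all genes tested. With genotype as the only term, 0 had an adjusted p under 0.05 in edgeR or DESeq2, and 1 passed in edgeR with the endothelial mean as a covariate. In that setting 227 of all 14598 genes tested passed. At an unadjusted p under 0.05 by edgeR there were 3, all higher in Erbb3d/d, where 6.64% of all genes tested were higher at that p. Among these were Cdh1, the cadherin of epithelia, with 182 ± 39.4 and 272 ± 80.8 CPM and Ctnna1, which ties cadherins to actin, with 208 ± 3.88 and 248 ± 28.5 CPM (SD, n = 4 each, Erbb3f/f first). Cdh1 is also one of the 12 epithelial markers. Tjp1, the scaffold that binds the Gja1 product directly, had 170 ± 7.56 and 182 ± 33.8 CPM and a log2 fold change of 0.10 (95% interval -0.17 to 0.37). Groups did not overlap for Ctnna1 and Prkca, higher, and Tuba1a, lower, which is 3 of 16 genes where 5.05% of all genes tested did not overlap, 2.57% with Erbb3d/d higher.

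Hormone receptors and factors of stromal receptivity and decidualization were listed as 14 genes, all tested, with 8 positive and 6 negative log2 fold changes. With all 8 libraries and genotype as the only term, 0 had an adjusted p under 0.05 in edgeR, while DESeq2 called Bmp2 (adjusted p = 0.00601). DESeq2 called 258 of the 15946 genes it tested. In edgeR Bmp2 (adjusted p = 0.0225) and Wnt4 (adjusted p = 0.00635) passed with the endothelial mean as a covariate, and Bmp2 (adjusted p = 0.0475) and Hoxa10 (adjusted p = 0.0452) without Erbb3d/d replicate 2. Over all genes tested these settings called 227 of 14598 and 259 of 14774. At an unadjusted p under 0.05 by edgeR there were 4, 2 in each direction, where 6.64% of all genes tested were higher and 4.97% lower at that p. Bmp2, a growth factor of decidualization, had 18.8 ± 4.01 CPM for Erbb3f/f and 32.3 ± 4.13 CPM for Erbb3d/d (SD, n = 4 each) and was the only one of the 14 whose groups did not overlap, as 5.05% of all genes tested did not. Fosl2, a subunit of AP-1, had 390 ± 99.1 and 583 ± 124 CPM (SD, n = 4 each). Hoxa10 and Nr2f2, transcription factors of uterine stroma, had 1051 ± 63.9 and 721 ± 258 CPM, and 542 ± 28.2 and 446 ± 76.4 CPM (SD, n = 4 each), lower in Erbb3d/d like Gja1. The other AP-1 genes Fos, Jun, Junb and Jund had log2 fold changes of 0.48, 0.32, 0.41 and 0.33, and Esr1 and Pgr, the receptors of oestrogen and progesterone, of 0.06 and -0.32, all with an unadjusted p above 0.05.

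Genes whose log2 CPM tracked each member most closely over the 8 libraries were ranked among 14517 tested genes, as a description in which the libraries and the genotype difference are shared. Nearest to Gja1 were Crispld1 (Pearson's r 0.984), Gli2 (0.982) and L3hypdh (0.976). Nearest to Gjb2 were Mal2 (0.994), App (0.993) and Cfi (0.993). Gja4 lay nearest to Grrp1 (0.957), Eogt (0.952) and Plscr1 (0.951), Gjc1 to Fam45a (0.954), Taf8 (0.943) and Trim17 (0.923), and Gjb1 to Opa3 (0.965), Sde2 (0.961) and Pdxk (0.948). Within the libraries labelled Erbb3d/d, Gja1 was highest in replicate 2 and lowest in replicate 4, and Gjb2 was lowest in replicate 2 and highest in replicate 3. Within Erbb3f/f, the replicate with the least Gjb2 (replicate 2) had the most Gja1, and the replicate with the most Gjb2 (replicate 4) had the second highest Gja1. Over all 8 libraries Pearson's r of Gja1 with Gjb2 was -0.878, a value that includes the genotype difference.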

How the data were processed

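Polyadenylated RNA of 8 uterine stromal cell libraries was read on an undirected paired-end protocol, per the labels' protocols. The authors deposited 1 table of raw read counts per gene symbol and library. HISAT2, SAMtools, HTSeq, StringTie and the builds mm10 and GRCm38 are named in the submitters' processing notes without versions or roles, and the annotation and counting options are not given in the sources used here. Lines that name no gene were left out. They held 70.9% to 73.0% of the counts of a library, and the lines of genes held 27.0% to 29.1%.

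Groups and replicate numbers came from the titles. Counts were fitted in R 4.3.3 with edgeR 4.0.16 (filterByExpr, which left 14598 of 23420 genes, TMM scaling, robust glmQLFit, glmQLFTest with genotype as the only term) and adjusted by Benjamini-Hochberg over all genes at 0.05. A list's gene symbols missing from the tables (2 of 118) were matched through older symbols. For single genes an exact two-sided permutation of the genotypes was run on log2(CPM + 0.5). Intervals come from the quasi-likelihood standard error. The edgeR script was tested on simulated counts. Nothing says that the libraries came from separate animals, so p-values measure the spread between these libraries, which may be technical. Likeness used log2 CPM with a prior count of 2.

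Positions and lengths came from GENCODE vM21 and promoters from RefSeq, both on GRCm38, where 5 of the 6 members had a promoter entry (Python 3.11.15, pandas 2.3.3). The 6 members and the lists were chosen with earlier results of these data known. The genes named were all members, list genes with an unadjusted p under 0.05, other connexins with a mean of at least 1 CPM and the 3 genes most like each member, and others are said to be chosen after their values were seen or serve as comparison. Some genes that this rule names are not reported here, though they stay in the counts over their lists. Alternatives were DESeq2 1.42.0, other scalings, no filter, the replicate number as a block, marker means as covariates and leaving out libraries.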

Additional observations from a re-analysis of the deposited data

Results flagged for a closer look

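Of 12 groups of 4 values examined (6 connexins in each labelled genotype), 1 held a value far from the rest, where chance at 1 in 20 gives 0.6. Gjb2 in Erbb3f/f replicate 4 had 91.5 CPM, while the nearest of the other Erbb3f/f libraries had 31.2 CPM. The same library had the highest sum of epithelial markers of its genotype, at 1500 CPM, and the part of these cells in its Gjb2 value was not tested. Without it the log2 fold change of Gjb2 was 2.93 (SE 0.65, adjusted p = 0.228 in edgeR's test) in place of 2.22.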

How the results depend on the processing

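Gja1 kept its negative and Gjb2 its positive log2 fold change under all 18 alternatives each, from -0.78 to -0.37 and from 0.40 to 3.24. Gja1 passed 0.05 in edgeR with the endothelial mean as a covariate (-0.71), without Erbb3d/d replicate 2, and in DESeq2 (-0.62), and Gjb2 with the endothelial mean (2.73). Gjc1 turned to 0.16 with the epithelial mean as a covariate and to 0.050 without Erbb3d/d replicates 3 and 4, and the cause was not tested. Leaving out 1 library at a time gave -0.78 to -0.52 for Gja1 and 0 to 259 genes called over all genes, the latter without Erbb3d/d replicate 2. Genes called numbered 0 in the main comparison, 258 in DESeq2, 227 with the endothelial mean and 52 with the replicate number as a block. In edgeR 1695 genes had an unadjusted p under 0.05.

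With the replicate block the log2 fold change was -0.65 for Gja1 (adjusted p = 0.0876) and 2.11 for Gjb2 (adjusted p = 0.0612) in edgeR's test, and it changed no member's call. The labels link the libraries by number only and do not say whether same-numbered libraries were paired. Deviations of same-numbered libraries correlated at 0.221, 0.159, 0.0959 and 0.145, all positive. Erbb3f/f replicates 1, 2 and 3 correlated best with the Erbb3d/d library of their own number, and Erbb3f/f replicate 4 with Erbb3d/d replicate 3. A pairing by number thus remains possible. Depth limits Gja5, with 2 to 12 reads per library.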
